A study of Gallus gallus with 24 samples.

Results

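Among the genes of the adult chicken sickle feather follicle, 96 stood higher in both males than in both females in every one of 6 tissues. They were chosen by their measured values. A gene entered when its mean over the 24 libraries was at least 1 CPM (a gene's counts scaled to a common library total) and when both male libraries lay above both female libraries in each tissue. The files hold 17108 genes, and 12443 of them reached the mean of 1 CPM. The 96 genes are 0.772% of these 12443. The same rule turned round, with both females above both males in all 6 tissues, chose 140 genes or 1.13%. Because the choice used the difference between the sexes in every tissue, the male excess is described below without any test. Differences between tissues were not used by the rule and were tested. The rule bears on them indirectly, since a gene near 0 in some tissue, or with a large spread between birds, is less likely to satisfy it.

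Sickle feathers are the long curved tail feathers. The follicle wall was sampled as a lower and an upper sheath. The other samples were the pulp, which is the vascular centre of a feather in growth, the collar epithelium that forms the feather, and the dermal papilla, a mesenchymal signalling centre, with the papilla ectoderm that covers it. Groups were male and female adult chickens, with no treatment or genotype given in the labels. Each of 2 males (male 1 and male 2) and 2 females (female 1 and female 2) gave all 6 tissues, with 1 library per tissue and bird, so that each of the 12 groups of sex and tissue has 2 libraries. The sources used here give neither breed nor exact age. The samples are bulk tissue, in which fewer cells of a type and less RNA per cell cannot be told apart.

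In birds, males are ZZ and females ZW. Compensation for the unequal dose of the Z chromosome is known to be partial and to act gene by gene, so that many Z-linked genes are transcribed at a higher level in male birds. Feathers are also a classic target of sex hormones, and plumage of many birds differs between the sexes. These are statements of background. The files name genes by versioned Ensembl identifiers alone, and 0 of the 17108 identifiers matched the reference table used here. The chromosome, the symbol and the function of the 96 genes, and the defining markers of the labelled tissues, were therefore not analysed here, and genes are given by identifier. At most 2 identifiers were chosen for each direction of each comparison, and a gene so chosen is also described in other tissues and comparisons.

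Libraries held 12514383 to 31404619 counts. The collar-restricted and pulp-over-collar genes used below to compare libraries numbered 25 and 134, and 0 of the 96 members were among either. The pulp-over-collar genes were chosen against the collar alone and are not particular to the pulp. In the dermal papilla libraries they stood at 57.3% to 59.7% of their pulp level. In 3 libraries the genes of one of these lists stood apart from the other libraries of the tissue. The collar-restricted genes were chosen to be low in the male sheath, pulp and dermal papilla libraries. For them, male and female libraries of these tissues were therefore not screened alike. The lower sheath of female 1 had a median of 11.8% of the collar level for the collar-restricted genes, against 0.0449% in that of female 2. The dermal papilla of female 1 had 3.30%, against 0.0264% in that of female 2. The papilla ectoderm of male 1 held pulp-over-collar genes at 2.42% of their pulp level, against 22.2% to 36.8% in the other papilla ectoderm libraries. Without these 3 libraries the rule chose 158 genes and kept all 96, as fewer libraries then have to be ordered.

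The male excess of most members was moderate and much the same size from gene to gene. Taking for each gene the median of its 6 tissue ratios (male mean CPM over female mean CPM), the 96 genes had a median of 1.66, with the middle of the list between 1.54 and 1.77. In 84 of the 96 the ratio was under 2, and 73 of these lay between 1.5 and 2. A further 8 genes lay between 2 and 4, and 4 genes lay above 4, at 6.79 to 16.9. No member lay between 3.19 and 6.79, the widest step, as a fold, in the ranked list. This step rests in part on male 1. Without it the median ratios of the 4 genes were 8.46, 7.09, 3.56 and 2.83, so that 2 of them fell under 4, and the highest of the other 92 was 3.21. Without female 2 the 4 genes stayed above 4 and 2 of the other 92 reached 4 as well, the higher of them at 4.13. By comparison, the 110 female-higher genes that were not female-limited (the lowest female CPM at most 5 times the highest male CPM) had a female to male median of 1.56. Their middle was broader, between 1.34 and 2.17, with 25 genes between 1.5 and 2. The remaining 30 female-higher genes were female-limited. No test was made of the difference between these sets, as both were chosen by the values compared.

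**Figure D1:**
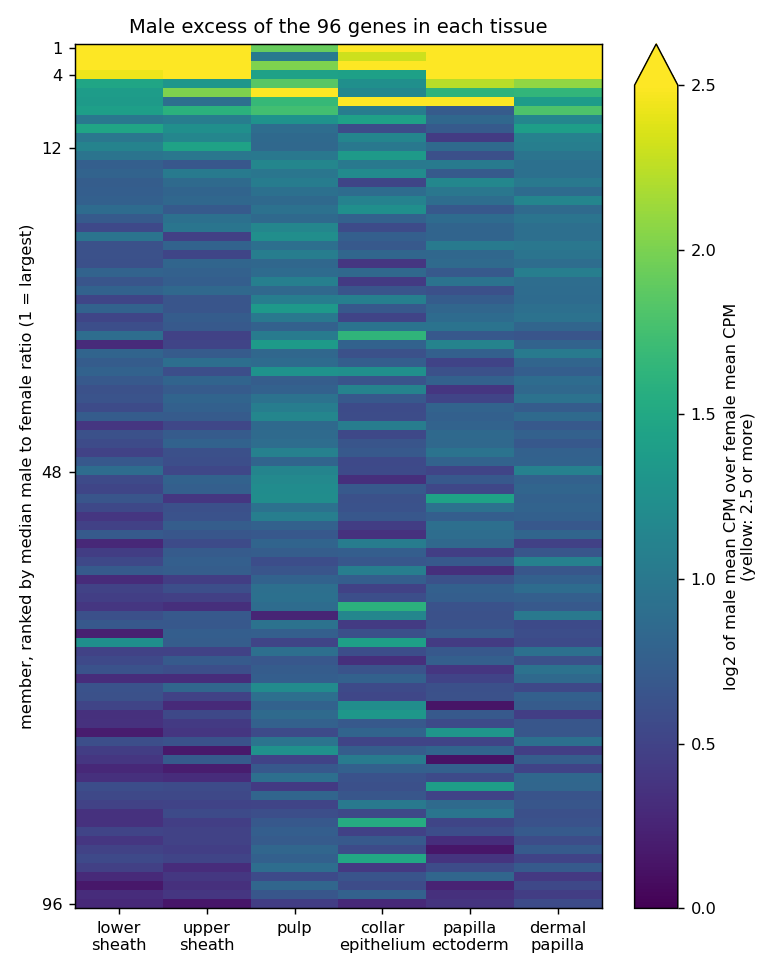
The heat map shows log2 of male mean CPM over female mean CPM for the 96 genes (rows, ranked by the median of their tissue ratios) in the 6 tissues (columns). The 4 top rows have median ratios of 6.79 to 16.9. All 4 are yellow (at or beyond the end of the colour scale) in the upper sheath, papilla ectoderm and dermal papilla. Most rows below them are blue to green in all 6 columns.

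Across tissues, on CPM of the library total, the ratio of a gene typically varied less among the members than among all genes. With TMM factors, a scaling explained below, the median ratio of the 96 genes ran from 1.34 in the collar to 2.27 in the papilla ectoderm. In 49 of the 96 genes the highest of the 6 tissue ratios was under 1.5 times the lowest, and in 16 it was over 2 times the lowest. The SD of the log2 ratio over the 6 tissues had a median of 0.22 among the members and of 0.41 among the 12222 genes with a mean of at least 1 CPM for which it could be computed. It was under 0.25 in 65 members (67.7%), against 23.4% of the 12443 genes. This evenness follows in part from a rule that asks for the same order in all tissues. Leaving out the 4 genes with a ratio above 4, the other 92 genes gave 552 ratios, of which 445 (80.6%) lay between 1.2 and 2. These 552 ratios ran from 1.09 to 6.36 with a median of 1.67. Only 15 of them were above 3, and they belonged to 6 genes.

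By tissue, the median ratio of the 96 genes was 1.52 in the lower sheath, 1.62 in the upper sheath, 1.85 in the pulp, 1.62 in the collar epithelium, 1.68 in the papilla ectoderm, and 1.76 in dermal papilla. Each pair of a male and a female gave similar figures. The rule asked for the male above the female in each pair, and the 4 pairs reuse 2 males and 2 females. They are therefore not independent, and their likeness is a description only. Over the 4 pairs the median was 1.48 to 1.54 in the lower sheath, 1.52 to 1.65 in the upper sheath, 1.81 to 1.91 in the pulp, 1.54 to 1.74 in the collar, 1.56 to 1.71 in papilla ectoderm and 1.68 to 1.87 in dermal papilla. The pulp was thus highest in every pair of birds on this scale, and 38 of the 96 genes had their highest ratio there. The lower sheath held the lowest ratio of 31 genes.

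These figures depend on how libraries are scaled, since the genes as a whole did not centre on equality. With CPM of the library total, the median log2 difference, male minus female, over the 12443 genes was -0.24 in the lower sheath, -0.15 in the upper sheath, 0.01 in the pulp, 0.18 in the collar, -0.36 in papilla ectoderm and -0.08 in dermal papilla. Relative to that shift, the median excess of the 96 genes was 1.80-fold, 1.79-fold, 1.83-fold, 1.43-fold, 2.16-fold and 1.86-fold in the same order of tissues. With TMM factors (a trimmed mean scaling that centres most genes) the median ratios were 1.77, 1.79, 1.82, 1.34, 2.27 and 1.82. The sheaths, pulp and dermal papilla then lay between 1.77 and 1.82, the collar was lowest and the papilla ectoderm highest. The collar and the papilla ectoderm are also the tissues in which the 2 scalings differ most. Under TMM factors all 96 genes kept both males above both females in the 5 tissues other than the collar, and 66 kept it in the collar as well. The rule then chose 125 male-higher and 73 female-higher genes, so that the male share of the 2 sets was 63.1%, against 40.7% with CPM of the library total. The 125 comprise those 66 genes and 59 others, 33 of which had lacked the papilla ectoderm only.

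**Figure D2:**
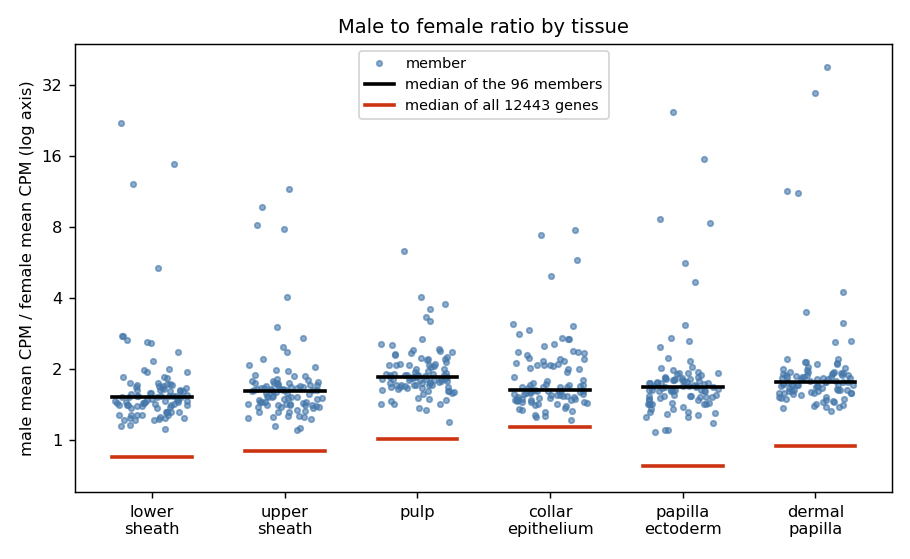
Each point is the male to female ratio of mean CPM of a member in a tissue (log axis). Black bars give the median of the 96 members, from 1.52 to 1.85, and red bars the median of all 12443 genes, from 0.778 in the papilla ectoderm to 1.14 in the collar epithelium.

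The edge of the rule was set by the order of the birds and not by the level. The lowest mean of a member was 1.77 CPM, and 0 genes under 1 CPM had the males above the females in all 6 tissues. The ratio of the lower male to the higher female, taken in the tissue where it was smallest, was 1.005 in the members closest to the edge and 0.9999 in the closest gene outside. It was under 1.1 in 31 members and between 0.9 and 1 in 74 genes outside. A further 148 genes had both males above both females in 5 tissues. The missing tissue was the papilla ectoderm in 99 of these, the lower sheath in 18, the collar in 15, the pulp in 14 and the upper sheath in 2. In 63 of the 99 the male mean was still higher in the papilla ectoderm. No gene of the 148 lacked only the dermal papilla.

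The limit of 4 that sets 4 genes apart was chosen after the values were seen. ENSGALG00000012538.4 had the largest excess. In the dermal papilla it stood at 1105 CPM in male 1 and 118 CPM in male 2, against 17.3 and 14.7 CPM in the females. In the lower sheath it stood at 605 and 243 CPM in males, against 21.8 and 16.4 CPM in females, and in the papilla ectoderm at 227 and 19.6 CPM in males, against 7.67 and 2.33 CPM in females. The females were close to each other in the dermal papilla and lower sheath, whereas male 1 was far above male 2 in the dermal papilla and papilla ectoderm. In the upper sheath the males agreed better, at 444 and 458 CPM, against 18.7 and 59.2 CPM in females. The pulp (32.8 and 20.9 CPM in males, 8.41 and 5.75 CPM in females) and the collar (5.28 and 9.71 CPM in males, 0.289 and 1.74 CPM in females) had much lower levels in both sexes. Its ratio was 38.2 in the dermal papilla, 24.7 in the papilla ectoderm, 22.2 in the lower sheath, 11.6 in the upper sheath, 7.39 in the collar and 3.79 in the pulp. Without male 1 the dermal papilla ratio was 7.35 and the papilla ectoderm ratio 3.92. Single females moved it too: the collar ratio was 4.31 without female 1 and 25.9 without female 2, and the upper sheath ratio was 24.1 without female 2.

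ENSGALG00000026928.1 had its highest level in the upper sheath, at 2016 and 1854 CPM in males, against 173 and 224 CPM in females. In the lower sheath it stood at 952 and 523 CPM in males, against 85.2 and 35.9 CPM in females. Both males were well above both females in the sheaths, by 9.76-fold in the upper and 12.2-fold in the lower. The papilla ectoderm had 926 and 103 CPM in males, against 62.5 and 55.7 CPM in females, and the dermal papilla 685 and 125 CPM in males, against 57.4 and 13.9 CPM in females. In these 2 tissues male 2 was nearer to the females than to male 1 in CPM. The collar (319 and 182 CPM in males, 26.2 and 75.1 CPM in females) and the pulp (322 and 162 CPM in males, 129 and 107 CPM in females) showed 4.95-fold and 2.04-fold higher male means. The pulp difference was the smallest of the 6 tissues for this gene, and without male 1 it was 1.37-fold. With a bird left out the dermal papilla ratio ran from 3.51 (without male 1) to 29.1 (without female 1), and the papilla ectoderm ratio from 1.75 (without male 1) to 15.7 (without male 2).

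ENSGALG00000013568.4 stood at 1549 and 180 CPM in male dermal papilla, against 38.5 and 19.4 CPM in females, a ratio of 29.9 that was 6.20 without male 1. In the lower sheath it had 1036 and 379 CPM in males, against 36.6 and 58.7 CPM in females, and in the upper sheath 804 and 1016 CPM in males, against 36.6 and 194.5 CPM in females. Female 2 was the higher female in both sheaths. In the pulp, where its ratio of 4.06 was the second largest of the 96 genes, it had 183 and 322 CPM in males, against 70.8 and 53.6 CPM in females. In the collar, where its ratio of 7.81 was the largest of the 96, the levels were only 4.02 and 15.6 CPM in males, against 0.819 and 1.70 CPM in females. The upper sheath ratio of 7.87 was 4.68 without female 1 and 24.9 without female 2, and the collar ratio was 3.19 without male 2 and 12.4 without male 1.

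ENSGALG00000025887.1 was second in the papilla ectoderm, with 765 and 72.4 CPM in males, against 23.6 and 30.1 CPM in females, a ratio of 15.6 that was 2.70 without male 1. It stood at 1259 and 191 CPM in male dermal papilla, against 74.6 and 54.5 CPM in females, and at 1009 and 591 CPM in male upper sheath, against 70.0 and 126 CPM in females. Again male 1 was above male 2, by 10.6-fold in the papilla ectoderm, 6.59-fold in the dermal papilla and 1.71-fold in the upper sheath. The collar had 18.1 and 17.5 CPM in males, against 4.92 and 8.37 CPM in females, a ratio of 2.68. The pulp had 96.8 and 122 CPM in males, against 60.3 and 21.0 CPM in females, a ratio of 2.69 that was 5.21 without female 1 and 1.81 without female 2.

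In all 4 genes male 1 exceeded male 2 in the lower sheath (1.82-fold to 3.02-fold), the papilla ectoderm (1.87-fold to 11.6-fold) and the dermal papilla (5.47-fold to 9.39-fold). In the upper sheath (0.791-fold to 1.71-fold), the pulp (0.570-fold to 1.99-fold) and the collar (0.257-fold to 1.75-fold) neither male was higher in all 4. Against the mean of the females, male 1 was 19.2-fold to 69.0-fold higher in the dermal papilla and male 2 was 2.96-fold to 7.35-fold higher. Among the other 92 members the median of male 1 over male 2 was between 0.947 and 1.02 in each tissue, and in the dermal papilla single genes ran from 0.618 to 2.47. The papilla ectoderm of male 1 is among the libraries that stand apart, and its pulp-over-collar genes were low. The part of this in the papilla ectoderm values was not tested. The dermal papilla of male 1 had pulp-over-collar genes at 59.7% of their pulp level, and that of male 2 at 57.3%.

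**Figure D3:**
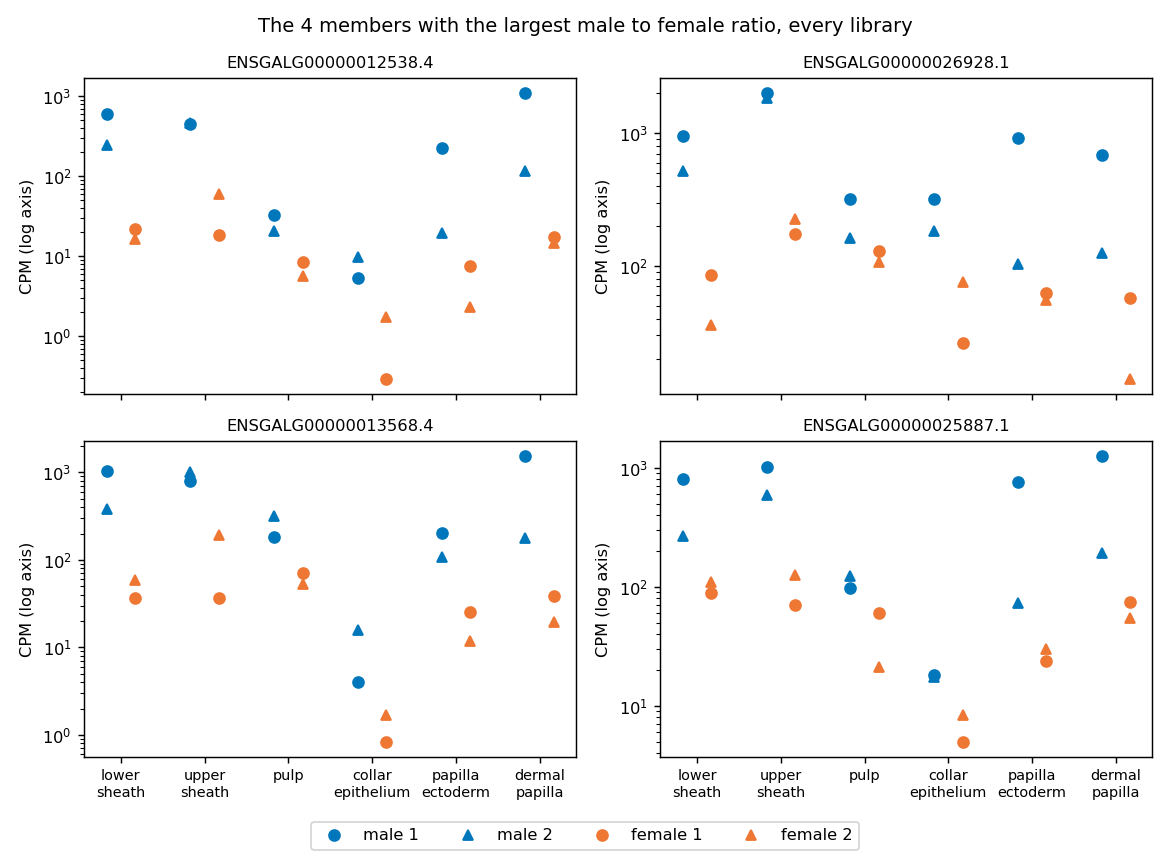
CPM (log axis) of the 4 members with the largest male to female ratio in every library, with males (blue) left of females (orange) in each tissue and circles and triangles for bird 1 and bird 2 of each sex. Male 1 lies above male 2 in all 4 genes in the lower sheath, papilla ectoderm and dermal papilla. Every male point lies above both female points of its tissue, as the rule requires.

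Below these 4 genes the largest excess in any tissue belonged to ENSGALG00000006106.4, at 6.36-fold in the pulp. It stood there at 115 and 174 CPM in males, against 31.9 and 13.5 CPM in females. In the upper sheath it had 123 and 169 CPM in males, against 32.5 and 39.8 CPM in females, and in the lower sheath 42.3 and 114 CPM in males, against 28.5 and 31.6 CPM in females. Its ratio was 4.04 in the upper sheath and between 2.23 and 3.13 in the other 4 tissues. Male 1 was below male 2 in both sheaths and in the pulp. The pulp ratio was 10.7 without female 1 and 4.53 without female 2, and the lower sheath ratio 1.41 without male 2.

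The member with the highest mean, ENSGALG00000002696.4 at 723 CPM over the 24 libraries, is typical of the bulk of the list in its excess. CPM also rises with transcript length, which is not given, so the mean is not compared with that of other genes as an abundance. In the pulp it stood at 773 and 794 CPM in males, against 486 and 427 CPM in females (1.72-fold). In the papilla ectoderm it had 1069 and 769 CPM in males, against 481 and 492 CPM in females (1.89-fold). The smallest excess was in the collar, at 1589 and 1757 CPM in males, against 1503 and 943 CPM in females (1.37-fold). Female 1 was close to male 1 there and far above female 2.

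Summed over the 92 genes below a ratio of 4, the level was 5884 and 5887 CPM in male lower sheath, against 3916 and 3533 CPM in females. It was 7057 and 7320 CPM in male upper sheath, against 4328 and 4123 CPM in females, and 7722 and 8034 CPM in male pulp, against 4336 and 4181 CPM in females. In these 3 tissues, and in the other 3 given below on this scale, the birds of a sex differed less from each other than from the other sex. A gap between the sexes follows from the rule, as every gene was chosen with both males above both females. The dermal papilla gave 6958 and 6820 CPM in males, against 4035 and 3548 CPM in females, and the papilla ectoderm 7327 and 6490 CPM in males, against 3909 and 4084 CPM in females. In the collar the sum was 10118 and 10335 CPM in males, against 7049 and 5989 CPM in females. With TMM factors the collar of female 1, at 8733 CPM, came close to that of male 1, at 9030 CPM. Male 2 had 9920 CPM and female 2 had 6202 CPM on that scale.

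Apart from the sex difference, the members were widely expressed. In 92 of the 96 (95.8%) every one of the 24 libraries was above 1 CPM, against 75.1% of the 12443 genes. Every library was above 10 CPM in 62 members (64.6%), against 44.6% of the 12443. The tissue specificity index tau, which is 0 for equal levels in all tissues and 1 for a gene seen in a single tissue, had a median of 0.338 among members and 0.463 among the 12443. It was above 0.7 in 2 members (2.08%), against 18.7%. The highest tissue mean was 2.01 times the lowest at the median of the members, against 3.01 times over the 12387 genes with no tissue mean of 0. Between birds of the same sex, the mean absolute difference of log2(CPM + 1) had a median of 0.19 for the males and 0.19 for the females among members, against 0.35 and 0.32 among the 12443. As the rule bears on level and spread, these figures describe the list and were not tested.

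The tissue profile was tested with edgeR's quasi-likelihood test on all 14077 genes that passed the filter on low counts, with the sexes averaged, and all 96 members were among them. Nearly all genes differ between these tissues: 85.7% of the genes tested passed the F test over the 6 tissues (Benjamini-Hochberg adjusted p below 0.05), and 86 of the 96 members (89.6%) did. The members' share was thus near the background, and with any bird left out it lay below it, at 60.4% against 68.0% without female 1 and 69.8% against 74.3% without male 1. The counts by tissue and direction are given beside their own background. In this part, tissue means with SD are CPM with TMM factors, and libraries were set against tissue means on that scale. Levels of single libraries and male to female ratios are from CPM of the library total.

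In the collar epithelium, 50 members (52.1%) were higher than the mean of the other 5 tissues, against 34.3% of all genes tested, and 15 members (15.6%) were lower, against 35.0%. The median log2 difference of the members was 0.33, against -0.04 for all genes. Leaving out any bird gave 39 to 49 higher and 10 to 14 lower members, and in each such fit the share of members was above that of all genes among the higher (40.6% against 28.8% without female 1) and below it among the lower (14.6% against 31.5% without male 1). A gene with little or no expression in a tissue can be called lower there but seldom satisfies the rule, and the part of this in the low count was not tested. The largest differences among members with all 4 collar libraries above every other tissue mean were those of ENSGALG00000000247.3 (adjusted p = 1.37e-07 by edgeR) and ENSGALG00000002696.4 (log2 difference 1.43 ± 0.14, SE, adjusted p = 2.93e-07). ENSGALG00000000247.3 averaged 125 ± 28.9 CPM in the collar, against 86.5 ± 49.5 CPM in the papilla ectoderm and 32.9 ± 11.3 to 45.7 ± 19.3 CPM in the other 4 tissues (SD, n = 4 libraries per tissue). The SD spans both sexes and therefore contains the male excess. On the low side the 2 largest differences were those of ENSGALG00000013568.4 (log2 difference -5.31 ± 0.73, adjusted p = 1.07e-05) and ENSGALG00000012538.4 (-4.22 ± 0.78, adjusted p = 0.000178). ENSGALG00000025887.1 was lower too (-3.84 ± 0.65, adjusted p = 8.52e-05), with all 4 collar libraries below every other tissue mean. Each of these belongs to the 4 genes of largest excess. The remaining gene of the 4, ENSGALG00000026928.1, was not called there (-0.93 ± 0.52, adjusted p = 0.124).

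In the papilla ectoderm, 32 members (33.3%) were higher than the mean of the other tissues, against 20.5% of all genes, and 7 members (7.29%) were lower, against 16.6%. These counts depend on single birds and libraries. The higher members numbered 13 (13.5%) without male 1, against 12.7% of all genes, 19 (19.8%) without male 2, against 15.9%, 26 (27.1%) without female 1, against 15.1%, and 11 (11.5%) without female 2, against 8.995%. They numbered 19 (19.8%) without the 3 libraries that stand apart, against 15.9%. The excess over the background was thus small without male 1 or female 2. The lower members were few with any bird left out, and their share stayed below that of all genes in each such fit. For 1 member all 4 libraries lay below the mean of every other tissue. This gene, ENSGALG00000027344.1, had 0.885 and 0.955 CPM of the library total in male papilla ectoderm, against 0.639 and 0.499 CPM in females. It was at 4.08 and 2.79 CPM in male pulp, against 1.47 and 1.86 CPM in females. Its log2 difference was -0.99 ± 0.23 (adjusted p = 0.00356 by edgeR, and 0.0686 without female 2).

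In the other 4 tissues the higher members fell short of the background, while the lower members exceeded it with all birds in the fit but not throughout with a bird left out. In the lower sheath 10 members (10.4%) were higher and 22 (22.9%) lower, against 21.0% and 15.0% of all genes. In the upper sheath 14 (14.6%) were higher and 24 of the 96 lower, against 23.5% and 16.3%. In the pulp 8 (8.33%) were higher and 27 (28.1%) lower, against 21.7% and 19.0%, and in the dermal papilla 14 (14.6%) were higher and 23 (23.96%) lower, against 22.3% and 16.8%. A level above the mean of the others in the collar lowers the other contrasts of the same gene, so the 6 comparisons are not independent of each other. Counts were smaller with 3 birds: 1 to 5 higher and 3 to 9 lower in the lower sheath, 5 to 11 and 6 to 17 in the upper sheath, 3 to 5 and 7 to 14 in the pulp, and 3 to 13 and 9 to 10 in the dermal papilla. Leaving out a bird moved every one of these counts by over 1.5 times, except both upper sheath counts without male 1 (11 and 17) and the higher count of the dermal papilla without male 2 (13). Among the higher, the share of members stayed below that of all genes in each of these fits. Among the lower, it came below that of all genes in the lower sheath without male 1 (3.12% against 6.04%), female 1 (7.29% against 10.2%) or female 2 (4.17% against 4.89%). It did so too in the pulp without male 1 (7.29% against 9.31%), in the upper sheath without female 2 (6.25% against 7.62%) and in the dermal papilla without female 1 (9.38% against 10.6%) or without the 3 libraries that stand apart (15.6% against 16.3%).

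Members that were called and had all 4 libraries of a tissue beyond the mean of every other tissue numbered 10 higher and 8 lower in the collar, 2 and 2 in the pulp, and 2 or fewer elsewhere. The same count was not made over all genes tested, which also had most calls in the collar (34.3% higher and 35.0% lower). ENSGALG00000015616.4 was such a member in the pulp, with 20.4 and 12.9 CPM of the library total in males, against 4.64 and 5.78 CPM in females. Every library of the other tissues was at 4.14 CPM or less on that scale. With TMM factors the highest papilla ectoderm library was at 5.65 CPM and the lowest pulp library at 3.86 CPM. In the lower sheath the males had 3 and 5 counts, against 2 and 1 counts in females. The order of the sexes in the lower sheath therefore rests on 11 counts in all for this gene. The upper sheath counts were low too, at 6 and 15 in males, against 5 and 5 in females. In the dermal papilla this gene had 42 counts in male 2 and 42 in female 2, so that their order rests on the library totals. Its pulp level was higher by 3.98 ± 0.30 on the log2 scale (adjusted p = 1.51e-07) and its lower sheath level lower (-3.41 ± 0.54, adjusted p = 0.000166). ENSGALG00000015326.3 was the other pulp gene, at 146 and 159 CPM in males, against 67.6 and 72.4 CPM in females (log2 difference of the pulp 1.04 ± 0.12, adjusted p = 5.25e-06). Its male to female ratio in the pulp was 2.18. ENSGALG00000014906.4 and ENSGALG00000014942.4 were lower in the pulp than elsewhere (-1.32 ± 0.20 and -0.81 ± 0.14, adjusted p = 8.2e-05 and 0.000262). The second of these had 149 and 141 CPM in male pulp, against 94.9 and 84.8 CPM in females, and kept a ratio of 1.61.

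In the upper sheath ENSGALG00000014960.4 and ENSGALG00000027295.1 were lower than elsewhere (-0.72 ± 0.13 and -0.72 ± 0.16, adjusted p = 0.000579 and 0.00293 by edgeR, the second 0.057 without female 2). Their male excess was small there too, at 1.13-fold and 1.31-fold, against 2.397-fold and 2.336-fold in the pulp. ENSGALG00000014960.4 had 6.02 and 6.42 CPM in male upper sheath, against 5.85 and 5.20 CPM in females. It had 19.4 and 21.4 CPM in male pulp, against 8.71 and 8.30 CPM in females. Males and females were therefore close to each other in the upper sheath and far apart in the pulp in this gene; whether the sex difference differed between tissues was not tested, as the rule used it. No member had all 4 libraries of the dermal papilla above or below the mean of every other tissue among those called.

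**Figure D4:**
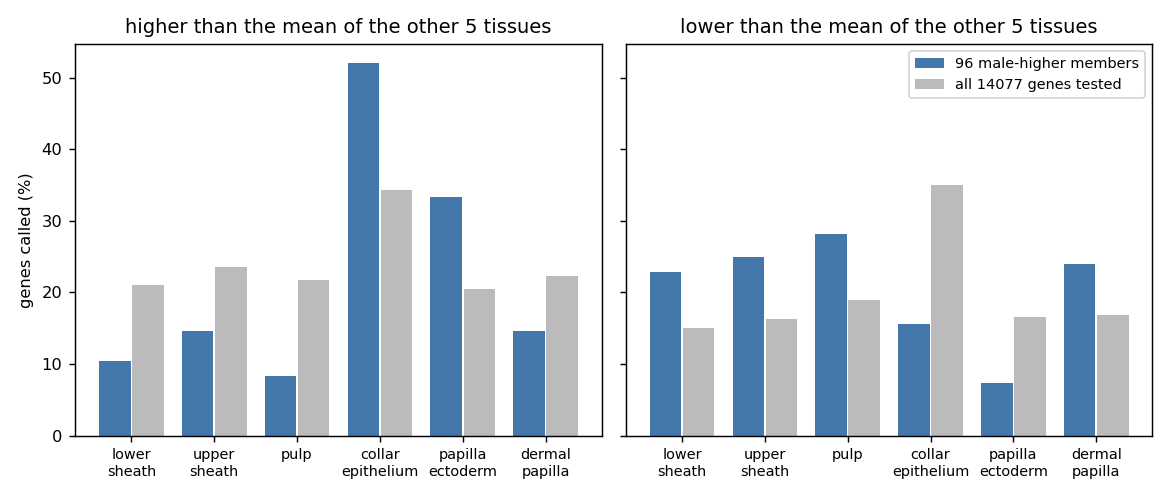
Bars show the percentage of genes called higher (left) or lower (right) in a tissue than in the mean of the other 5 (edgeR, adjusted p below 0.05), for the 96 members (blue) and all 14077 genes tested (grey). With all birds in the fit, the members exceed the background among genes higher in the collar epithelium (52.1% against 34.3%) and the papilla ectoderm (33.3% against 20.5%) and lie below it in the other 4 tissues.

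Members called in none of the 6 tissues numbered 5, and 2 were called in all 6. The same counts were not made over all genes tested, so these are not set against a background.

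**Figure D5:**
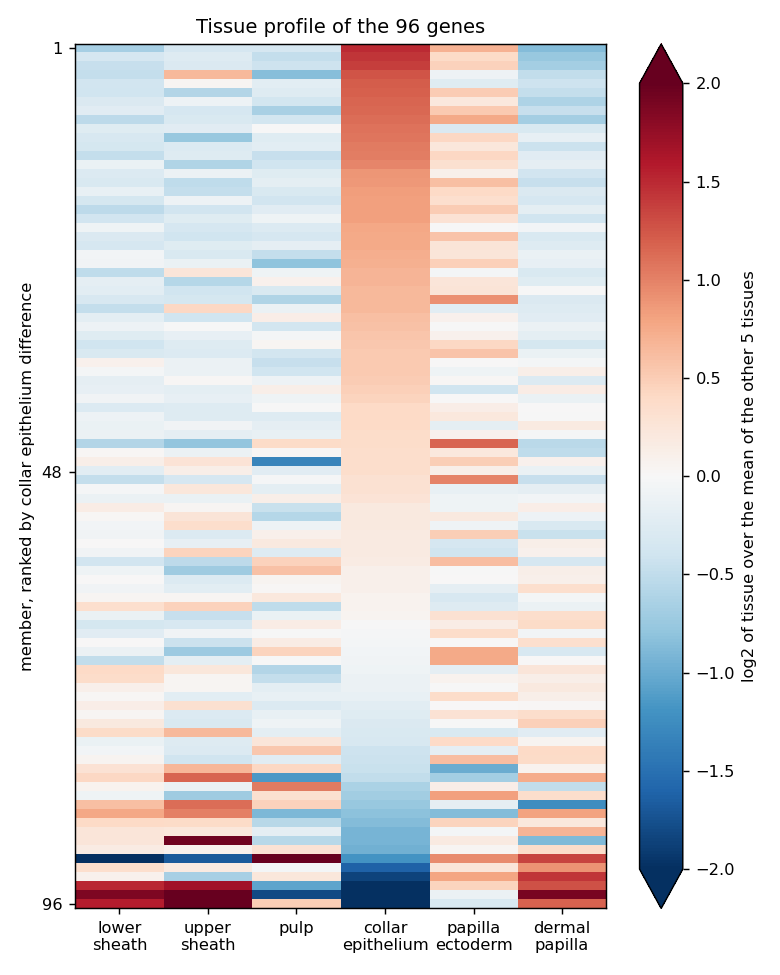
The heat map shows the log2 difference of each tissue from the mean of the other 5 for the 96 members, with the sexes averaged, rows ranked by the collar epithelium and larger differences shown at the end colours of the scale. The collar column is red over most of its length (median 0.33), and the bottom rows, which hold ENSGALG00000012538.4 and ENSGALG00000013568.4, are blue in the collar and red in the sheaths and dermal papilla.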

How the data were processed

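Polyadenylated RNA was sequenced from 24 libraries (TruSeq kit, per the labels' protocols). The deposited files hold raw counts for each gene, as their headers say and their whole numbers show. The submitters' processing notes name STAR 2.4.1d, HTSeq 0.6.0, edgeR and the build galGal4. Annotation release, strand setting and read filters: not given in the sources used here, so counts of overlapping, antisense or near-identical genes are uncertain. The rule was applied to CPM of each file's total. Tissues were compared in R 4.3.3 with edgeR 4.0.16 (TMM, filterByExpr with a minimum count of 10, quasi-likelihood test, Benjamini-Hochberg threshold 0.05) in a model of 12 group means with 12 residual degrees of freedom; SEs come from the F statistic. The fit was also run on simulated data with a single spread for all genes and no difference between sexes or birds. That setting is simpler than these data, so the run does not show how the fit performs on them. DESeq2 1.42.0, other scalings and filters, a block for the bird (tissues are paired by the individual in the labels) and leaving out each bird were tried. Birds are numbered in order of deposition. Collar-restricted genes had over 50 CPM in both male collar libraries and over 20 times their level in any male library from dermal papilla, pulp or sheath. Pulp-over-collar genes had over 50 CPM in every pulp library and over 20 times their level in any collar library, with no limit in the other tissues. Identifiers were named by a fixed rule: the 2 members with the largest male to female ratio over all tissues and in each tissue, the member with the highest mean CPM, and up to 2 members per direction in each tissue comparison with the largest called difference and all 4 libraries beyond every other tissue mean. The members and lists were chosen with earlier results of these data known. P-values rest on the spread between 2 birds of a sex within a tissue, pooled over the 12 groups. The main fit treats the libraries of a bird as independent.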

Additional observations from a re-analysis of the deposited data

How the results depend on the processing

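The number of male-higher genes was 125 with TMM factors, 111 with DESeq2 size factors (56 of the 96 among them), 96 with a minimum of 0.5 CPM or none and 91 with a minimum of 5 CPM. It was 138 to 257 with any bird left out and 158 without the 3 libraries that stand apart, all of these containing the 96, since fewer libraries have to be ordered. The median ratio over the members chosen was 1.59 to 1.68 with a bird left out. For the 96 genes, TMM and DESeq2 factors gave ratios of 1.77 and 1.78 in the lower sheath, 1.79 and 1.78 in the upper sheath, 1.34 and 1.30 in the collar and 2.27 and 2.28 in the papilla ectoderm. With a bird left out the ratio was 1.54 to 1.64 in the upper sheath, 1.62 to 1.73 in the collar, 1.60 to 1.70 in the papilla ectoderm and 1.71 to 1.85 in the dermal papilla, where it was 1.85 without the libraries that stand apart. Members called in the F test numbered 58 to 67 with a bird left out (60.4% to 69.8%, against 65.0% to 74.3% of all genes). Members called higher then numbered 1 to 5 in the lower sheath, 5 to 11 in the upper sheath, 3 to 5 in the pulp, 11 to 26 in the papilla ectoderm and 3 to 13 in the dermal papilla. Members called lower numbered 3 to 9, 6 to 17, 7 to 14, 0 to 4 and 9 to 10 in the same tissues; these fits have 6 residual degrees of freedom in place of 12. The share of all genes called fell as well, to between 10.9% and 20.3% among the higher and between 4.89% and 10.2% among the lower in the lower sheath, for example. Without the 3 libraries that stand apart, 19 members were higher in the papilla ectoderm (19.8%, against 15.9% of all genes) and 15 lower in the dermal papilla (15.6%, against 16.3%). With the replicate block for the bird, 86 members passed the F test (89.6%, against 89.1% of all genes), which is near the background. In the collar 50 were higher (52.1%, against 35.5%) and 16 lower (16.7%, against 36.5%) in that fit. The block moved no other count of members by 1.5 times. Other factors, DESeq2 and no filter also kept every count of called members within 1.5 times. Of 108 alternatives for the 12 tissue differences of named genes, 106 kept the call, 2 lost it and 0 changed sign.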
